A study of Mus musculus with 4 samples.

Results

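The 10 genes described here encode the contractile apparatus of smooth muscle: the actins Acta2 and Actg2, the myosin heavy chain Myh11, the myosin light chain kinase Mylk, the thin-filament proteins Cnn1, Tagln, Smtn and Lmod1, the intermediate filament protein Des and the dense-body protein Synpo2. They were chosen by name, with earlier results of these data known. All 10 were found among the 22422 genes of the deposited table by matching gene identifiers to mouse symbols. RNA came from distal colon of female mice aged 6 weeks that had received 2% dextran sulfate sodium (DSS), a compound that injures the colonic lining, for 5 days. One group was wild type (strain C57BL/6) and the other Elf4fl/fl-Villin-Cre, in which Cre made from the villin promoter deletes loxP-flanked Elf4 in the gut epithelium and not in muscle. For Elf4fl/fl-Villin-Cre the label on strain has C57BL/8, where the design text puts both genotypes on C57BL/6, and the labels do not say which Elf4 alleles or Cre the wild-type mice carried. Each group had 2 libraries, both groups had received DSS, and colon without DSS was not analysed here. Whether the 2 libraries of a group came from separate mice is not stated, so p-values cover only the spread between these libraries, and that spread may be technical.

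Smooth muscle shortens when myosin filaments pull on actin filaments. Calcium-bound calmodulin activates myosin light chain kinase, which phosphorylates the light chain and starts the cross-bridge cycle, while calponin and related proteins sit on the thin filament. In the colon these genes are transcribed mainly in the circular and longitudinal muscle of the outer wall and in the muscularis mucosae under the epithelium, with Acta2 also made by myofibroblasts and pericytes. Their transcription depends on serum response factor (SRF) and its partner myocardin, which act through a short DNA element named the CArG box.

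The libraries held 15885028 to 16425954 reads, recovered from the deposited values. Elf4 itself, an ETS-family transcription factor gene on chromosome X, stood at 1588 and 1938 normalised reads in wild-type colon, against 897 and 758 in Elf4fl/fl-Villin-Cre tissue (limma adjusted p = 0.0139). The authors' scaling and a scaling to library totals gave different centres: the median log2 fold change of all genes tested, Elf4fl/fl-Villin-Cre over wild type, was 0.11 under the deposited scaling and 0.41 under library totals. Every contractile gene is therefore given under both. The log2 fold change of Elf4 was -1.09 under the deposited scaling and -0.77 under library totals (limma adjusted p = 0.0259). The 10 epithelial markers listed below had medians of -1.31 and -0.99. Whether Elf4 fell beyond the epithelial markers was not tested. Under the deposited scaling 15.5% of 22050 genes passed the test (limma, Benjamini-Hochberg adjusted p under 0.05), 6.86% as higher and 8.60% as lower. Under library totals 24.1% of 22025 passed, 18.7% as higher and 5.42% as lower.

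Of the 10 contractile genes, 1 passed the test under the deposited scaling. Des, which encodes the muscle intermediate filament desmin, fell by 0.93 ± 0.22 on the log2 scale (SE, n = 2 libraries per group; limma adjusted p = 0.0382). The smooth muscle actin gene Actg2 and the calponin gene Cnn1 had changes of the same order, -0.99 and -0.79, that did not pass. The kinase gene Mylk and the thin-filament gene Smtn had the smallest differences below 0, at -0.08 and -0.14. The median over the 10 was -0.37, beside 0.11 for all genes tested. It was -0.12 with replicate 1 of Elf4fl/fl-Villin-Cre left out, -0.61 with its replicate 2 left out, and -0.21 without wild type replicate 1. The share called lower, 1 of 10, lies near the 8.60% of all genes called lower, so the count alone does not set these genes apart. Under library totals limma called 0 of the 10 (2 at an unadjusted p under 0.05), edgeR called 0 with the same totals (1 at an unadjusted p under 0.05), and the median was -0.06 beside 0.41 for all genes. For a single gene, fewer muscle cells in a piece of tissue and less of its RNA per cell would look the same in a bulk library. These cannot be told apart here.

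**Figure D1:**
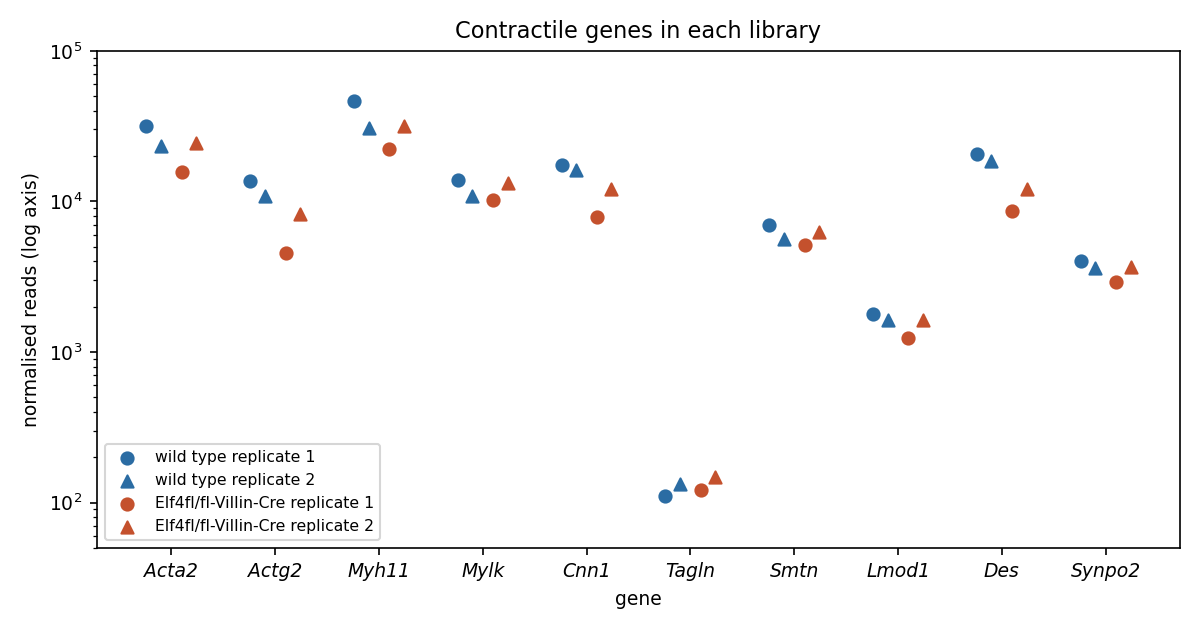
Normalised reads of the 10 contractile genes (log axis) in each of the 4 libraries. Blue marks are wild type and red marks Elf4fl/fl-Villin-Cre, circles replicate 1 and triangles replicate 2. The 2 red marks lie below both blue marks for Actg2, Cnn1, Des and Lmod1, and Tagln lies far under the others at 110 to 147.

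The smooth muscle actins form the thin filaments. Acta2 (ENSMUSG00000035783.8; chromosome 19, 34241090 to 34255590, minus strand, mm10) encodes the alpha isoform found in vascular and visceral muscle. It stood at 31441 and 23422 normalised reads in wild-type colon, against 15690 and 24514 in Elf4fl/fl-Villin-Cre tissue. The groups overlapped, since replicate 2 of Elf4fl/fl-Villin-Cre lay above replicate 2 of wild type. The log2 fold change was -0.47 ± 0.29 (SE; 95% interval -1.17 to 0.23; limma adjusted p = 0.314), and -0.15 under library totals (adjusted p = 0.695). Under the deposited scaling it ranged from -0.79 without replicate 2 of Elf4fl/fl-Villin-Cre to -0.15 without replicate 1, and was -0.26 without wild type replicate 1.

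Actg2 (ENSMUSG00000059430.14; chromosome 6, 83512905 to 83536265, minus strand) encodes the gamma isoform typical of enteric muscle. Its values were 13692 and 10928 in wild-type colon, against 4573 and 8242 in Elf4fl/fl-Villin-Cre tissue, so both Elf4fl/fl-Villin-Cre libraries lay below both wild-type ones. The wild-type mean, 12310 ± 1955, was 1.92 times the Elf4fl/fl-Villin-Cre mean, 6407 ± 2594 (SD, n = 2 each). The log2 fold change of -0.99 ± 0.30 missed the threshold in limma (adjusted p = 0.0759) and in edgeR (adjusted p = 0.0599), and passed in DESeq2 (adjusted p = 0.0038). Under library totals it was -0.68 ± 0.28 (limma adjusted p = 0.121). With replicate 1 of Elf4fl/fl-Villin-Cre left out it was -0.57 under the deposited scaling.

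The coding sequences of Acta2 and Actg2 are alike enough that the assignment of reads to each matters for the comparison between them. They were identical at 955 of 1134 aligned positions (84.2%), and the longest stretch with no difference was 29 bases. The start of each coding sequence, from the first base of the start codon and over the first 90 aligned positions, is printed here from the GENCODE transcripts, with the bases that differ between them in capitals.
Acta2: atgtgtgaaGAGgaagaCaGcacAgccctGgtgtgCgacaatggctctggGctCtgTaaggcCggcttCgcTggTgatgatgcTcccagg
Actg2: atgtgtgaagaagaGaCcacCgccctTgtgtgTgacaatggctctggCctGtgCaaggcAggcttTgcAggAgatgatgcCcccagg
Within this stretch 16 bases of Acta2 and 13 of Actg2 differ from the other gene, Acta2 being 1 codon longer. A read longer than 29 bases that lies within the aligned coding sequence would span a difference. The read length is not given in the sources used here, and the assignment of reads was not tested. The other actin genes were close to both: the best match of either was the skeletal actin gene Acta1, at 85.6% identity to Acta2 and 85.3% to Actg2. Acta1 stood at 71.0 to 174 normalised reads, while the cytoplasmic actin gene Actb, at 83.8% identity to Acta2, stood at 32004 to 45068, above Acta2 in every library.

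The motor and its activating kinase come next. Myh11 (ENSMUSG00000018830.8; chromosome 16, 14194535 to 14291372, minus strand) encodes the smooth muscle myosin heavy chain. It stood at 46152 and 30643 in wild-type colon, against 22376 and 31807 in Elf4fl/fl-Villin-Cre tissue. Wild type replicate 1 stood above the other 3 libraries, and the groups overlapped. The difference on the log2 scale was -0.50 ± 0.30 (95% interval -1.23 to 0.23; limma adjusted p = 0.308), and -0.18 under library totals. Under the deposited scaling it was -0.20 and -0.79 without wild type replicates 1 and 2, and -0.24 and -0.75 without replicates 1 and 2 of Elf4fl/fl-Villin-Cre.

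Mylk (ENSMUSG00000022836.10; chromosome 16, 34745210 to 35002420, plus strand) encodes the kinase that phosphorylates the myosin light chain. Its values were 13933 and 10807 in wild-type colon, against 10196 and 13211 in Elf4fl/fl-Villin-Cre tissue, with the 2 groups covering nearly the same span. The difference on the log2 scale was -0.08 ± 0.22 (95% interval -0.61 to 0.45; limma adjusted p = 0.831), and 0.24 under library totals (95% interval -0.25 to 0.72). A gene-level count does not separate the long kinase, the short kinase and telokin, a kinase-independent product of the same gene. The antisense genes E130310I04Rik and Gm21691, without deposited values, share 4.87% and 1.99% of the Mylk exon bases.

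Calponin, transgelin, smoothelin and leiomodin bind the thin filament. Cnn1 (ENSMUSG00000001349.5; chromosome 9, 22099216 to 22109630, plus strand), the gene of calponin 1, stood at 17511 and 16140 in wild-type colon, against 7852 and 12055 in Elf4fl/fl-Villin-Cre tissue. The groups did not overlap, and the wild-type libraries lay closer together than the Elf4fl/fl-Villin-Cre ones. The means were 16826 ± 970 and 9954 ± 2972 (SD, n = 2 each). The log2 fold change of -0.79 ± 0.24 did not pass in limma (adjusted p = 0.0779) or edgeR (adjusted p = 0.0612) and passed in DESeq2 (adjusted p = 0.00429). Under library totals it was -0.47 ± 0.22 (limma adjusted p = 0.156), and with replicate 1 of Elf4fl/fl-Villin-Cre left out it was -0.48 under the deposited scaling.

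Smtn (ENSMUSG00000020439.17; chromosome 11, 3517523 to 3540612, minus strand) encodes smoothelin, a marker of contractile smooth muscle. Its values were 6972 and 5626 in wild-type colon, against 5115 and 6278 in Elf4fl/fl-Villin-Cre tissue, with overlapping groups. The difference on the log2 scale was -0.14 ± 0.18 (95% interval -0.59 to 0.30; limma adjusted p = 0.631), and 0.17 under library totals. Of the Smtn exon bases, 16.3% are shared with Gm11946, a transcript of the opposite strand that stood at 1152 to 1557 normalised reads.

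Lmod1 (ENSMUSG00000048096.7; chromosome 1, 135324807 to 135368065, plus strand) encodes leiomodin 1, which nucleates actin filaments. It stood at 1792 and 1639 in wild-type colon, against 1233 and 1617 in Elf4fl/fl-Villin-Cre tissue. The groups did not overlap, but replicate 2 of each genotype lay close to the other. The log2 fold change was -0.28 ± 0.17 (95% interval -0.69 to 0.13; limma adjusted p = 0.307), and 0.04 under library totals, where the groups overlapped. The deposited scaling gave -0.47 without replicate 2 of Elf4fl/fl-Villin-Cre and -0.084 without replicate 1.

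Tagln (ENSMUSG00000032085.5; chromosome 9, 45929619 to 45936058, minus strand) encodes transgelin, or SM22 alpha, which is usually among the most abundant proteins of smooth muscle. In these libraries it stood at 110 and 133 in wild-type colon, against 121 and 147 in Elf4fl/fl-Villin-Cre tissue, that is 107 to 176 reads. It was the lowest of the 10 genes in every library. The difference on the log2 scale was 0.14 ± 0.22 (95% interval -0.39 to 0.67; limma adjusted p = 0.692), and 0.46 under library totals (adjusted p = 0.159). In the GENCODE annotation 62.4% of the Tagln exon bases also belong to Gm48529, an antisense gene, which stood at nearly the same values, 113 and 132 in wild-type colon, against 122 and 125 in Elf4fl/fl-Villin-Cre tissue. A further 5.43% are shared with Pcsk7 on the opposite strand. The strand setting of the authors' counting is not given in the sources used here, so reads of the overlapping genes cannot be told apart, and the part of the overlap in the low Tagln value was not tested.

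Desmin filaments and dense bodies tie the contractile units together and to the membrane. Des (ENSMUSG00000026208.9; chromosome 1, 75360329 to 75368579, plus strand) stood at 20589 and 18576 in wild-type colon, against 8659 and 12113 in Elf4fl/fl-Villin-Cre tissue. The groups were clearly apart, with the higher Elf4fl/fl-Villin-Cre library well under the lower wild-type one. The wild-type mean, 19582 ± 1423, was 1.89 times the Elf4fl/fl-Villin-Cre mean, 10386 ± 2442 (SD, n = 2 each). The call held in edgeR (adjusted p = 0.0293) and DESeq2 (adjusted p = 8.3e-05). The call was lost under library totals (log2 fold change -0.62 ± 0.20; limma adjusted p = 0.0656) and in each of the 4 limma fits without 1 library, none of which called any gene of the table (3729 to 6189 genes at an unadjusted p under 0.05). In edgeR it was kept (adjusted p = 0.0126) once replicate 2 of Elf4fl/fl-Villin-Cre was left out, and lost without each of the other 3 libraries (adjusted p = 0.0853 to 0.124). Its log2 fold change ranged from -1.18 to -0.69 over the 4 limma fits without 1 library. Gm15179, an antisense gene without a deposited value, shares 5.86% of the Des exon bases.

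Synpo2 (ENSMUSG00000050315.13; chromosome 3, 123076519 to 123236149, minus strand) encodes myopodin, an actin-binding protein of dense bodies. It stood at 4026 and 3607 in wild-type colon, against 2929 and 3637 in Elf4fl/fl-Villin-Cre tissue, and the groups overlapped. The log2 fold change was -0.22 ± 0.16 (95% interval -0.62 to 0.17; limma adjusted p = 0.389), and 0.09 under library totals. With 1 library left out, the deposited scaling gave -0.38 without replicate 2 of Elf4fl/fl-Villin-Cre and -0.067 without replicate 1.

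**Figure D2:**
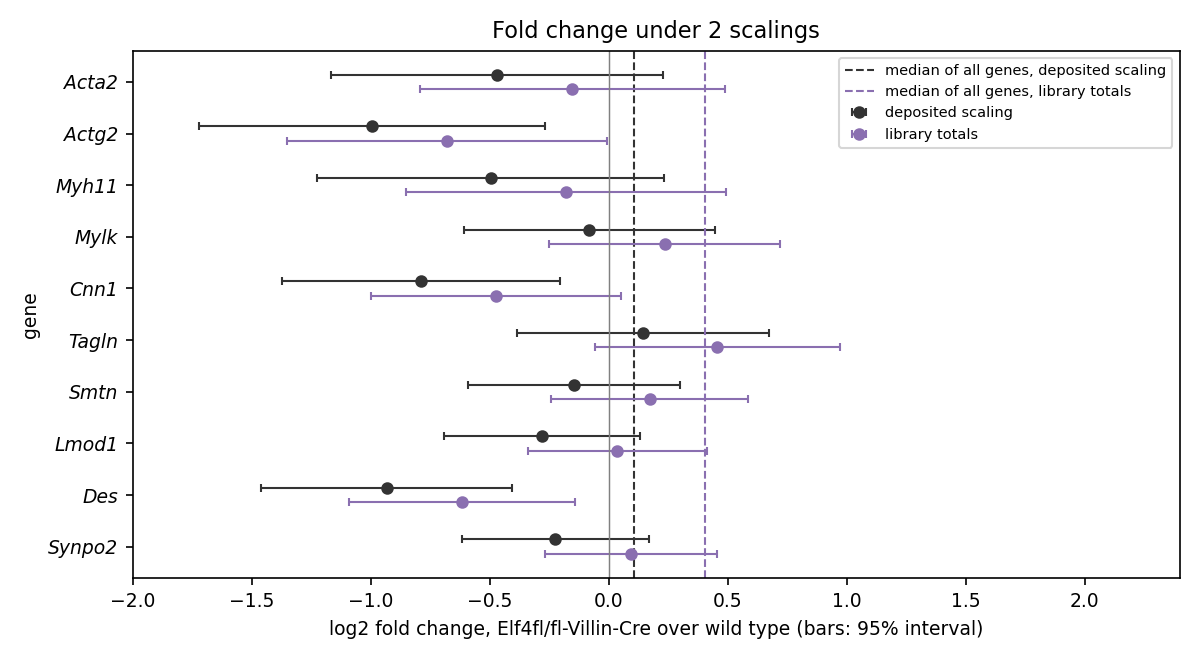
Log2 fold change of each contractile gene, Elf4fl/fl-Villin-Cre over wild type, with 95% intervals from limma, under the deposited scaling (black) and library totals (violet). Dashed lines are the medians of all genes tested, 0.11 and 0.41. The points of Actg2, Des and Cnn1 lie furthest left under both scalings, while Lmod1, Synpo2, Smtn and Mylk lie below 0 under the deposited scaling and above 0 under library totals.

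The 2 scalings moved every gene by nearly the same amount, so the direction of the smaller differences depended on the choice. Under the deposited scaling 9 of the 10 log2 fold changes were negative, and under library totals 5 were. Relative to the median of all genes the picture was close under both: 9 of 10 lay below that median in each, by a median distance of -0.48 under the deposited scaling and -0.46 under library totals. Both scalings apply 1 factor per library, so apart from small effects at low values this closeness was fixed in advance. It is no independent check. Quantile normalisation gave another result, with 5 of 10 below the median of all genes, a median of 0.03 over the 10 and 0 called by limma (0 at an unadjusted p under 0.05), beside 2532 of all genes called. Groups did not overlap for 4 of the 10 under the deposited scaling, all with Elf4fl/fl-Villin-Cre lower (Actg2, Cnn1, Des and Lmod1), beside 27.2% of all genes in that direction and 35.0% in the other. Under library totals Actg2, Cnn1 and Des lay lower without overlap, beside 15.7% of all genes, and Tagln higher, beside 52.3%, or 68.1% in either direction. DESeq2 called Des, Actg2 and Cnn1 as lower, beside 24.2% of all genes called, 14.9% as lower and 9.25% as higher. In edgeR Des was the 1 gene of the 10 called, beside 23.4% of all genes, 13.5% as lower and 9.88% as higher.

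Under the deposited scaling 9 of the 10 were highest in wild type replicate 1 and 9 were lowest in Elf4fl/fl-Villin-Cre replicate 1, Tagln being the exception in each case. Under library totals the pattern was mixed: 5 were highest in wild type replicate 1 and 5 in replicate 2 of Elf4fl/fl-Villin-Cre, while 6 were lowest in replicate 1 of Elf4fl/fl-Villin-Cre, 3 in wild type replicate 2 and 1 in wild type replicate 1. The gap between replicates, replicate 1 minus replicate 2, had a median of 0.23 log2 units over the 10 genes in wild type, against -0.44 in Elf4fl/fl-Villin-Cre tissue. Over all genes tested the corresponding medians were 0.01 and -0.03. The widest gap between the Elf4fl/fl-Villin-Cre libraries was that of Actg2, at -0.85, followed by Acta2 at -0.64 and Cnn1 at -0.62. Between the wild-type libraries the widest was that of Myh11, at 0.59. The summed reads of the 10 genes took 0.941% and 0.726% of the wild-type libraries, against 0.603% and 0.827% of those of Elf4fl/fl-Villin-Cre, so this share overlapped between genotypes.

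**Figure D3:**
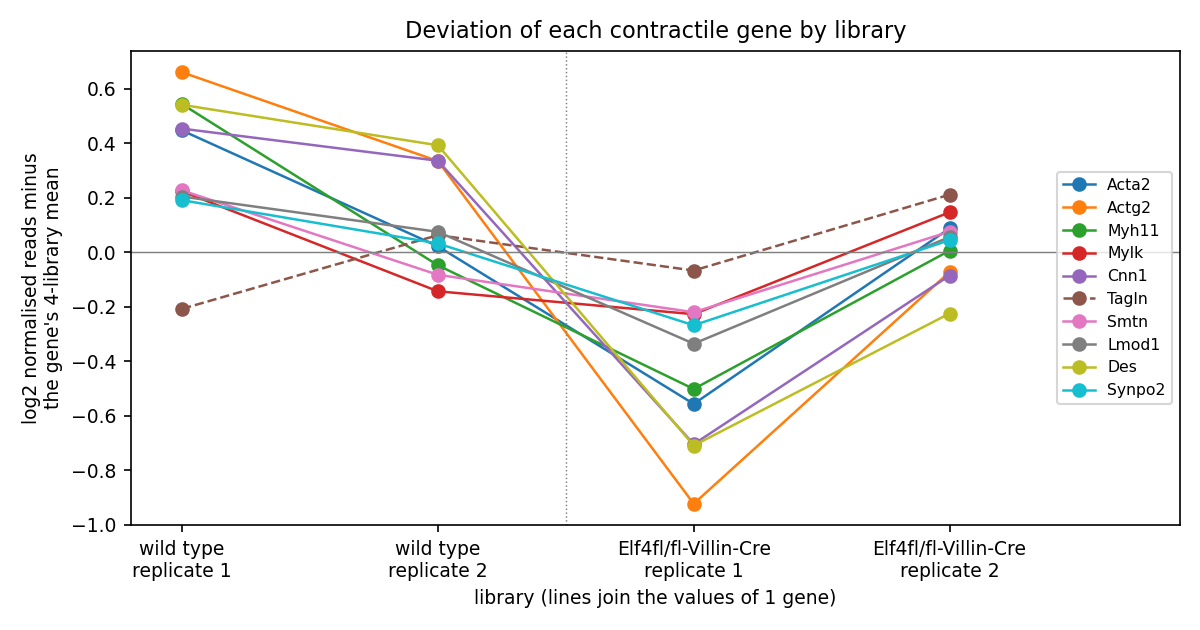
Log2 normalised reads under the deposited scaling of each contractile gene minus its mean over the 4 libraries, with 1 line per gene and the genotypes parted by the dotted line. Lines only join the values of 1 gene. Under this scaling, unlike library totals, all genes but Tagln (dashed) are highest in wild type replicate 1 and lowest in Elf4fl/fl-Villin-Cre replicate 1, and Elf4fl/fl-Villin-Cre replicate 2 spans -0.22 (Des) to 0.21 (Tagln).

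Ratios between 2 contractile genes within a library do not depend on the scaling of that library. The pairs were chosen after the values were seen and are given as a description. Actg2 amounted to 0.435 and 0.467 of Acta2 in the wild-type libraries, against 0.291 and 0.336 with Elf4fl/fl-Villin-Cre. The enteric actin was thus lower against the vascular and visceral one in both Elf4fl/fl-Villin-Cre libraries. Des amounted to 0.446 and 0.606 of Myh11 in wild type and to 0.387 and 0.381 in Elf4fl/fl-Villin-Cre colon. Mylk went the other way against Myh11, at 0.302 and 0.353 in wild-type colon, against 0.456 and 0.415 in Elf4fl/fl-Villin-Cre tissue. None of these 3 ratios overlapped between genotypes. The other pairs computed, Cnn1 to Smtn, Cnn1 to Acta2, Actg2 to Mylk and Des to Mylk, did not overlap either. Except for Mylk to Myh11, each pair set Actg2, Des or Cnn1, the genes with the largest falls, over a gene with a smaller one. The choice of pairs thus favoured separation of the groups. Among all single genes 62.2% did not overlap under the deposited scaling and 68.1% under library totals. The share among ratios of all genes was not computed. With 2 libraries against 2, a two-sided exact permutation test cannot give a p below 0.333, and a ratio shows unequal change, not which of its genes changed.

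**Figure D4:**
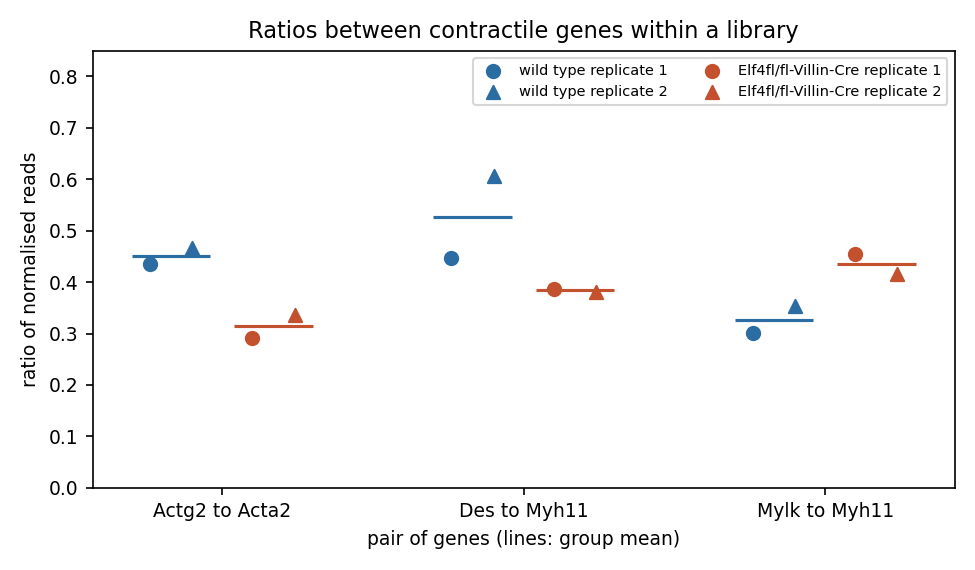
Ratio of normalised reads of Actg2 to Acta2, Des to Myh11 and Mylk to Myh11 in each library, with group means as lines. Elf4fl/fl-Villin-Cre libraries (red) lie below wild type (blue) for the first 2 pairs and above for the third.

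Levels of different genes were compared per kilobase of annotated exon. In wild type Acta2 was highest, at 12492 ± 2582 normalised reads per kilobase (SD, n = 2), then Actg2 at 7906 ± 1255, Cnn1 at 6150 ± 355, Des at 5216 ± 379 and Myh11 at 5053 ± 1443. Des and Myh11 did not differ beyond their spread. Smtn followed at 1438 ± 217, Mylk at 1098 ± 196, Lmod1 at 435 ± 27.5, Synpo2 at 292 ± 22.6 and Tagln at 61.1 ± 8.07. In Elf4fl/fl-Villin-Cre colon Acta2 was again highest, at 9154 ± 2841 per kilobase. Actg2, Cnn1, Myh11 and Des followed at 4115 ± 1666, 3638 ± 1086, 3565 ± 878 and 2767 ± 650, and the ranges of these 4 overlapped. Within each Elf4fl/fl-Villin-Cre library Des was the lowest of these 4, at 2307 and 3227. The ranges of Smtn (1301 ± 188) and Mylk (1039 ± 189) overlapped as well, above Lmod1 and Synpo2, but Smtn lay above Mylk within every library. Per kilobase Acta2 ranked between the 38th and the 56th gene of the table over the 4 libraries, and Tagln between 8126 and 9135. The exon lengths join all annotated isoforms, which lowers the value of genes with long rare exons such as Synpo2 and Mylk.

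Promoter sequence from RefSeq (GRCm38.p6) was available for 7 of the 10 genes: Acta2, Cnn1, Des, Lmod1, Mylk, Smtn and Synpo2. The CArG box was searched on both strands in the 250 bases before each start. None of the 7 held an exact box, which 1.47% of all 32851 promoters in the table held. With 1 position allowed to differ, Acta2 and Lmod1 held 2 each, and 17.5% of all promoters held at least 1. These elements are shown because SRF is the known regulator of the family, each within 30 bases and with the element in capitals.
Acta2, chr19:34255438-34255467, minus strand: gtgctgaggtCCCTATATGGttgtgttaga
Acta2, chr19:34255388-34255417, minus strand: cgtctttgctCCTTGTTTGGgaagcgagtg
Lmod1, chr1:135324614-135324643, plus strand: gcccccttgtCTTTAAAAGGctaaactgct
Lmod1, chr1:135324639-135324668, plus strand: ctgctctgtaCTAAATTTGGtcacgcagcg
The elements of Acta2 begin 84 and 34 bases before the RefSeq start, and those of Lmod1 189 and 164 bases before it. In the GENCODE annotation 217 of the 250 bases before the RefSeq start of Acta2 lie in an exon of that gene. A match is a description of the letters, and binding of SRF to these elements was not tested.

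Other genes of the contractile pathway, listed by function, went in both directions. Of all genes tested, 6.86% were called higher and 8.60% lower under the deposited scaling. Under library totals the shares were 18.7% and 5.42%. Among 19 partners of the filaments 1 rose and 2 fell, counts near those shares, with a median of -0.11. Flnc, the muscle filamin that crosslinks actin, fell by 0.73 on the log2 scale and Vcl, the vinculin of membrane attachment plaques, fell by 0.71, while Nexn, the actin-binding nexilin, rose by 0.69 (limma adjusted p = 0.0207, 0.0444 and 0.0328). Under library totals 3 of the 19 rose and 0 fell, with Flnc at -0.41 and Vcl at -0.39. Of 18 genes that control contraction, 1 rose, Gucy1b1, a subunit of the nitric oxide receptor guanylate cyclase, by 1.06 (limma adjusted p = 0.0135), and 0 fell. Their median was 0.25, and under library totals 7 rose. Chrm2 and Chrm3, the muscarinic receptors through which acetylcholine drives contraction, stood at 0.33 and -0.46 and did not pass (limma adjusted p = 0.137 and 0.39). Under library totals Chrm2 rose by 0.65 (limma adjusted p = 0.0236).

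Regulators of the smooth muscle programme were mostly uncalled. Of 9 SRF and myocardin regulators, 1 rose and 1 fell, beside 6.86% of all genes called higher and 8.60% lower. Scaled to library totals, 2 were called higher and 1 lower, beside 18.7% and 5.42% of all genes. Foxf1, a transcription factor of gut mesenchyme, rose by 1.02 and Klf4, a repressor of smooth muscle genes that differentiated colonic epithelium also makes, fell by 1.36 (limma adjusted p = 0.0162 and 0.0142). Srf stood at -0.12 ± 0.13 and Myocd at -0.13, and neither passed (limma adjusted p = 0.589 and 0.658). Of 11 genes that anchor the muscle membrane, 4 rose and 0 fell. Scaled to library totals, 5 were called higher. The 4 were the integrins Itga1 and Itga5 (0.77 and 0.78), the sarcoglycan Sgcb (0.60) and the caveolin Cav2 (0.61), with limma adjusted p of 0.0198, 0.0357, 0.0369 and 0.0489. Of 11 non-muscle or paralogous contractile genes tested, 3 rose and 0 fell: the non-muscle myosin Myh10 by 0.71, the calponin Cnn3 by 0.65 and the kinase Mylk3, at only 2.06 to 13.4 normalised reads, by 2.16 (limma adjusted p = 0.0264, 0.0268 and 0.0433). Under library totals 4 of these 11 rose.

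Markers of the other cells in the colon wall were measured in the same libraries. Beside them, 6.86% of all genes were called higher and 8.60% lower under the deposited scaling. Under library totals these shares were 18.7% and 5.42%. The 10 epithelial markers all fell under the deposited scaling, with a median of -1.31, and 9 of them fell under library totals. Vil1, whose promoter drives the Cre, fell by 1.58 and the keratin gene Krt19 fell by 2.15 (limma adjusted p = 0.00942 and 0.0111). The sum of the epithelial markers was 300310 and 363993 normalised reads in wild-type colon, against 99164 and 124257 in Elf4fl/fl-Villin-Cre tissue. The sum of the 10 contractile genes was 156219 and 121519 in wild-type colon, against 78746 and 113619 in Elf4fl/fl-Villin-Cre tissue. Of 10 fibroblast markers 3 rose and 0 fell (median 0.63), of 7 pericyte markers 4 rose (median 0.91) and of 6 endothelial markers 2 rose (median 0.67). Under library totals 9 of the fibroblast, 4 of the pericyte and 4 of the endothelial markers rose. The pericyte channel gene Kcnj8 rose by 2.04 and the fibroblast proteoglycan gene Dcn by 1.84 (limma adjusted p = 0.00942 and 0.00742). Of 11 neuronal markers 1 rose, Vip, the relaxing neuropeptide gene of the gut wall, by 1.58 (limma adjusted p = 0.00825), and the median was 0.50. Under library totals 7 of the 11 rose. Among 5 glial markers 2 rose and 0 fell (median 0.92), and under library totals 3 rose. The glial filament gene Gfap rose by 1.11 (limma adjusted p = 0.0132). The part of these cell markers in the contractile result was not tested.

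Of 3 markers of interstitial cells of Cajal, the pacemaker cells of gut muscle, Etv1 rose by 1.34 and the chloride channel gene Ano1 fell by 1.09 (limma adjusted p = 0.0149 and 0.0174). Kit, the defining receptor of these cells, stood at 0.23 (limma adjusted p = 0.332). Under library totals Etv1, Ano1 and Kit stood at 1.65, -0.78 and 0.54 (limma adjusted p = 0.00808, 0.0267 and 0.0518). Of 5 mesothelial markers, which mark the outer serosa, 3 rose and 0 fell (median 1.18), and under library totals 4 rose. The shares of all genes called higher were 6.86% under the deposited scaling and 18.7% under library totals. Those called lower were 8.60% and 5.42%. Of 7 leukocyte markers 6 rose under both scalings (median 1.08 under the deposited one). Striated muscle markers were sparse: the 11 genes summed to 424 and 412 normalised reads in wild-type colon, against 259 and 479 in Elf4fl/fl-Villin-Cre tissue, Myh4 was at 0 in every library, and limma called 0 of the 10 tested (0 at an unadjusted p under 0.05). All of the contractile genes but Tagln thus stood above the summed striated markers in every library.

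**Figure D5:**
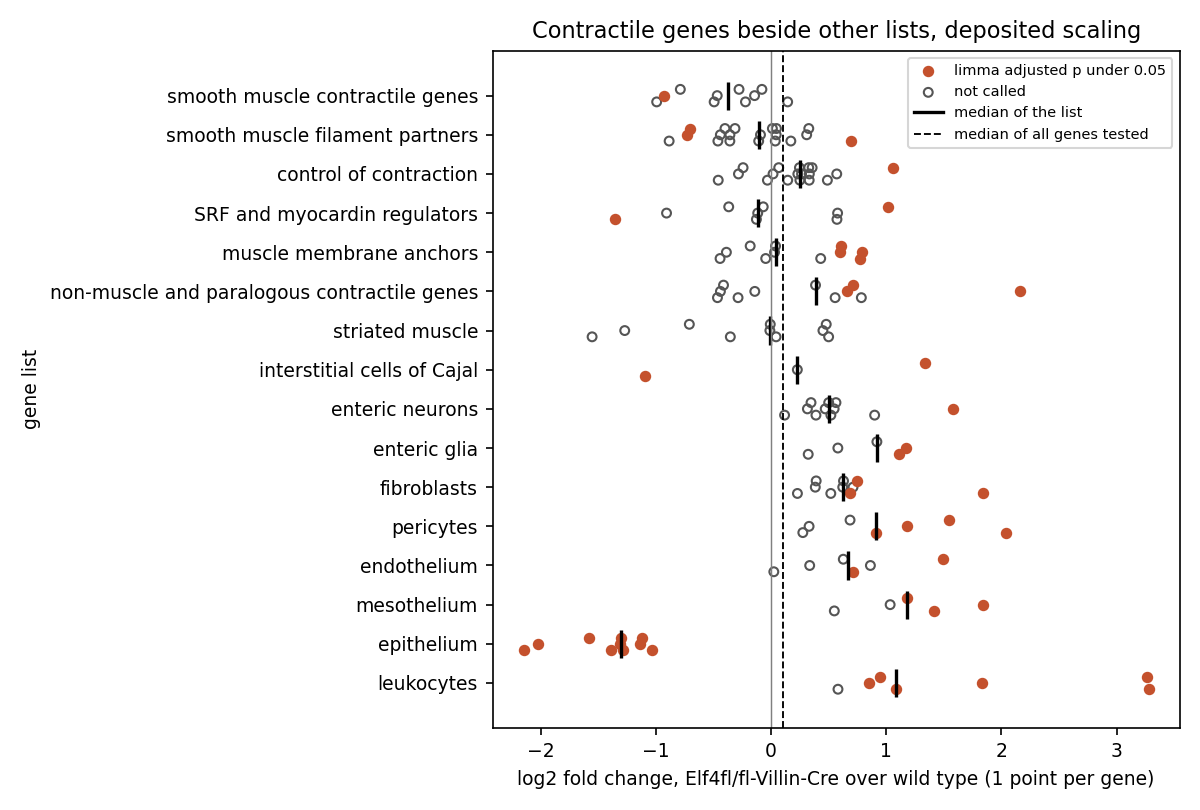
Log2 fold change of each gene, Elf4fl/fl-Villin-Cre over wild type under the deposited scaling, for the contractile genes and 15 other lists. Filled points passed limma, open points did not, black bars are list medians and the dashed line is the median of all genes tested (0.11). The contractile genes have a median of -0.37 with 1 filled point, between the epithelial markers at -1.31 and the fibroblast markers at 0.63.

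Genes most like the 10 were ranked by distance of their centred log2 profile over the 4 libraries from the contractile genes' median profile. The search covered 10654 named genes above median abundance, leaving out the 10, predicted genes and pseudogenes. The closest were Cby1, Mta3, Nat9, Stx18 and Tpm1, with root mean square distances of 0.019, 0.022, 0.036, 0.041 and 0.046 log2 units. Tpm1, a tropomyosin of the thin filament, stood at 25730 and 22372 in wild-type colon, against 14915 and 20934 in Elf4fl/fl-Villin-Cre tissue. The other 4 stood between 129 and 504 normalised reads. Among the 10 genes themselves Lmod1 lay nearest to the median profile (0.079) and Actg2 furthest (0.338), with 46 and 5219 other genes closer. With 4 libraries such a profile has few degrees of freedom, and likeness is given as a description.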

How the data were processed

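The table deposited by the authors holds 1 normalised signal per gene and library. Per the values, each entry is a whole number of reads times 1 factor per library (100% of values whole within 0.01), so whole reads were recovered and gene length plays no part. Reads were placed on mm10 (per the submitters' processing notes), but the sources used here name no aligner, counter, strand setting or scaling tool. Symbols, exon lengths and overlaps came from GENCODE mouse release 21 (99.8% of identifiers matched, versions ignored).

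The main test was limma 3.58.1 (R 4.3.3) on log2(value + 1) of all genes with a mean of at least 1, with trended variances, a genotype term alone and Benjamini-Hochberg adjustment over all genes at 0.05. Fold changes on this scale understate those of low genes. Library totals divided each value by its library's sum. Alternatives were median and quantile scaling, pseudocounts of 0.5 and 10, no filter or a mean of at least 10, edgeR 4.0.16 and DESeq2 1.42.0 on recovered reads, a replicate block and leaving out each library. Those with edgeR or library totals without a library, and library totals with the block, were added after seeing the data. Scripts were tested on simulated data. Members and lists were chosen with earlier results of these data known. Named genes are the 10, Elf4, up to 4 called genes by smallest p in each pathway list, up to 2 by smallest p in each marker list and the 5 genes most like the members. Acta1, Actb, Chrm2, Chrm3, Srf, Myocd, Kit and the genes overlapping members were named outside this rule, after their values were seen. Lmod2, Lmod3 and Smtnl1 were not analysed here. A further marker that the rule names is not reported here.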

Additional observations from a re-analysis of the deposited data

How the results depend on the processing

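The 10 genes were recomputed under 24 other settings. Des was the 1 gene called with median scaling, both pseudocounts, both filters and edgeR. The count called was 0 under library totals in limma and edgeR and under quantile normalisation, and 3 in DESeq2. The count over all genes, 3409, became 5308 under library totals and 6027 with edgeR on totals. The share of calls that were higher was 44.4%, but 77.5% under library totals. Under library totals Lmod1, Synpo2, Smtn and Mylk turned to 0.037, 0.093, 0.17 and 0.24 in limma, and to 0.044, 0.10, 0.17 and 0.23 in edgeR. Under quantile normalisation the median of the 10 was 0.033, Acta2, Myh11, Synpo2, Smtn and Mylk turned to 0.10, 0.15, 0.11, 0.20 and 0.39, and Tagln to -0.031. Without 1 library, limma called 0 of the 10 and 0 of all genes, Smtn ranged from -0.30 to 0.010 and Mylk from -0.27 to 0.11. Without 1 library in edgeR, 0 to 3 of the 10 and 1285 to 3754 of all genes were called (2142 without Elf4fl/fl-Villin-Cre replicate 1), Mylk ranged from -0.31 to 0.069 (0.051 without Elf4fl/fl-Villin-Cre replicate 1) and Tagln from -0.039 to 0.26 (-0.030 without wild type replicate 1). Without 1 library under library totals, 0 of the 10 and 0 to 22 of all genes were called. There the median ranged from -0.26 to 0.16, Acta2 from -0.44 to 0.13 (0.066 without wild type replicate 1), Myh11 from -0.48 to 0.12 (0.038 without Elf4fl/fl-Villin-Cre replicate 1), Lmod1 from -0.12 to 0.20, Synpo2 from -0.026 to 0.21 (0.18 and 0.0077 without wild type replicates 1 and 2), Smtn from 0.011 to 0.33 (0.28 and 0.061 without Elf4fl/fl-Villin-Cre replicates 1 and 2) and Mylk from 0.047 to 0.43 (0.086 without Elf4fl/fl-Villin-Cre replicate 2). The cause was not tested.

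With the replicate block 3 of the 10 were called, Des, Actg2 and Cnn1, among 4511 of all genes, and with library totals and the block 2, Des and Actg2, among 7606. There Lmod1, Synpo2, Smtn and Mylk again stood at 0.037, 0.093, 0.17 and 0.24. The labels give the replicate numbers no meaning, so the block is not taken as a pairing. Over all genes tested, deviations of replicate 1 from its group mean correlated at 0.10 between the genotypes. Fits without 1 library assume that the lone library of a genotype varies like the other group. With 2 libraries per group, differences of the size of Acta2 or Myh11 were not resolved.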
